A study of Homo sapiens with 3 samples.

Results

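The 4 HOX clusters are the chromosomal arrays that hold the human HOX genes, and what follows are their peaks of H3K36me3, the trimethyl mark on lysine 36 of histone H3, in LNCaP prostate cancer cells. Members were chosen by position in hg19, as every peak that overlapped 1 of 4 intervals by at least 1 bp. The intervals were HOXA on chromosome 7 from 27130000 to 27250000, HOXB on chromosome 17 from 46600000 to 46810000, HOXC on chromosome 12 from 54330000 to 54450000 and HOXD on chromosome 2 from 176955000 to 177056000. They held 26 of the 117564 nuclear peaks of the untreated library and 41 of the 131798 of the library from cells given dihydrotestosterone (DHT). The genes followed were 38 HOX genes, 10 of HOXA, 10 of HOXB, 9 of HOXC and 9 of HOXD.

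The study made 3 chromatin immunoprecipitation sequencing libraries from LNCaP, an established androgen-responsive line of prostate cancer cells, grown in RPMI with serum. Of the immunoprecipitated libraries, 1 came from cells labelled as having no treatment and 1 from cells kept for 4 h with 100 nM DHT, a potent androgen, in RPMI described as red-free. An input library was also made and was not analysed here. Medium and hormone cannot be told apart, each condition is 1 library of 1 cell line, and no p-value was computed: every difference is a description of 2 peak lists.

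HOX genes encode homeodomain transcription factors that give cells their position along the body axis. Within a cluster they lie in the order in which they act, from anterior genes with low numbers to posterior genes with high numbers. In tissues where they are silent, HOX genes are typically held by Polycomb proteins and H3K27 methylation, and where they are transcribed, the elongating polymerase leaves H3K36me3 over the gene body. HOXB13, the posterior-most gene of HOXB, is a lineage factor of prostate epithelium that binds chromatin together with the androgen receptor.

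No annotation of hg19 was used, so peaks were placed by cluster and by distance from its ends, and the only gene with an interval of its own was HOXB13, on chromosome 17 from 46802000 to 46806000. RefSeq (GRCh38.p14) gave the order of the genes. From anterior to posterior, coordinates ascend in HOXA, from HOXA2 to HOXA13, and in HOXB, from HOXB1 to HOXB13. They descend in HOXC, from HOXC4 to HOXC13, and in HOXD, from HOXD1 to HOXD13. Each peak is given with the authors' score, whose scale is not stated. It runs from 50 to 3100 in both lists, with medians of 81.2 untreated and 85.7 after DHT, and values of different lists may not be on the same scale. A score is given as deposited, and a percentile is its rank within its own list.

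Sequences show why a HOX peak is hard to give to 1 gene. RefSeq promoters (250 bases before to 50 after a start, GRCh38.p14) were found for 20 of the 38 genes. HOXC4 and HOXC5 have the same one, since RefSeq gives both, and HOXC6, the same first base, and a peak downstream of it can belong to transcripts of any of them. It is printed because the most covered part, with each cluster divided into 4, lay at HOXC4. Such parts differ in length between clusters. HOXD13 is printed beside this promoter, from the least covered cluster. HOXD13, a posterior gene of digits and genitalia, has its promoter at chr2:176092471-176092770, and the shared HOXC promoter is at chr12:54016638-54016937, both on the plus strand. Capitals mark AGAACA, the half-site of the androgen receptor motif, searched as AGAACA and TGTTCT so that both strands are read.
HOXC4 and HOXC5: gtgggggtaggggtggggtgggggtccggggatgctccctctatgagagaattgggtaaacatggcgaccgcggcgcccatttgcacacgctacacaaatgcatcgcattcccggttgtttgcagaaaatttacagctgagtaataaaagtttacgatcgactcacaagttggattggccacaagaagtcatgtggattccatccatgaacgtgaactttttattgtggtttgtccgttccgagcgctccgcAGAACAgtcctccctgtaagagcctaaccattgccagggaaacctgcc
HOXD13: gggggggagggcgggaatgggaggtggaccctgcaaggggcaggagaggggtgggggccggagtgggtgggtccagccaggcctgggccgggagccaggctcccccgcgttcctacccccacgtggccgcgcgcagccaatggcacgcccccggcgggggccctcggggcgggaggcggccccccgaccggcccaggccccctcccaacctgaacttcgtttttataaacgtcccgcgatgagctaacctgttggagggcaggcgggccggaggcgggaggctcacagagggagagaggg

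The shared HOXC4 and HOXC5 promoter held 1 half-site and 15 CpG dinucleotides, with 51.7% G and C. That of HOXD13 held no half-site and 24 CpG, with 74.0% G and C. Of 27 promoter entries of HOX members, 5 held a half-site (18.5%), against 14.8% of all 35116 promoters, which were not reduced to distinct sequences. Counted as 26 distinct sequences, 4 HOX promoters held one (15.4%), near the share of promoters at large. Besides the shared HOXC sequence these were 1 of the 7 promoters of HOXA3 and those of HOXA9 and HOXA11. The median number of CpG dinucleotides was 22 over the HOX entries, 22.5 over the distinct HOX promoters and 14 over all 35116.

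Coverage by peaks differed widely between the clusters. HOXC was the most covered, at 6.15% of its 120 kb in untreated cells and 9.26% after DHT. HOXA was at 2.75% and 4.62%, HOXB at 3.67% and 2.86% of its 210 kb, and HOXD at 0.520% and 0.754% of its 101 kb. Among peaks scoring at least 100, untreated HOXB (2.75%) exceeded HOXC (2.61%), and with peaks joined at 5 kb, HOXA after DHT (16.4%) exceeded HOXC (15.7%). The order HOXC, HOXB, HOXA, HOXD in untreated cells became HOXC, HOXA, HOXB, HOXD after DHT, and HOXA and HOXB did not differ beyond counting error in either library. The 95% counting intervals, which treat peaks as independent, ran from 0.726% to 4.77% for HOXA and from 0.0599% to 7.29% for HOXB untreated. After DHT they ran from 1.89% to 7.36% and from 0.877% to 4.83%. The HOXC interval after DHT, 3.92% to 14.6%, did not reach that of HOXD, 0 to 1.82%, whereas untreated those of HOXC, 1.16% to 11.1%, and HOXD, 0 to 1.25%, overlapped. Over the genome, peaks covered 2.08% and 2.13%.

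Beside windows of its own length tiled over the genome, HOXC had more coverage than 81.4% of the windows that held a peak of either library in untreated cells and more than 90.1% after DHT. HOXB stood above 71.3% and 66.1%, and HOXA above 63.4% and 74.9%. HOXD stood above 34.2% and 40.1%, below the median of such windows, which was 1.27% covered untreated and 1.32% after DHT. Among all windows, with or without a peak, HOXD stood above 58.0% untreated and 61.8% after DHT. Those shares were 87.6% and 93.4% for HOXC, 78.8% and 74.9% for HOXB, and 75.7% and 83.3% for HOXA.

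**Figure D1:**
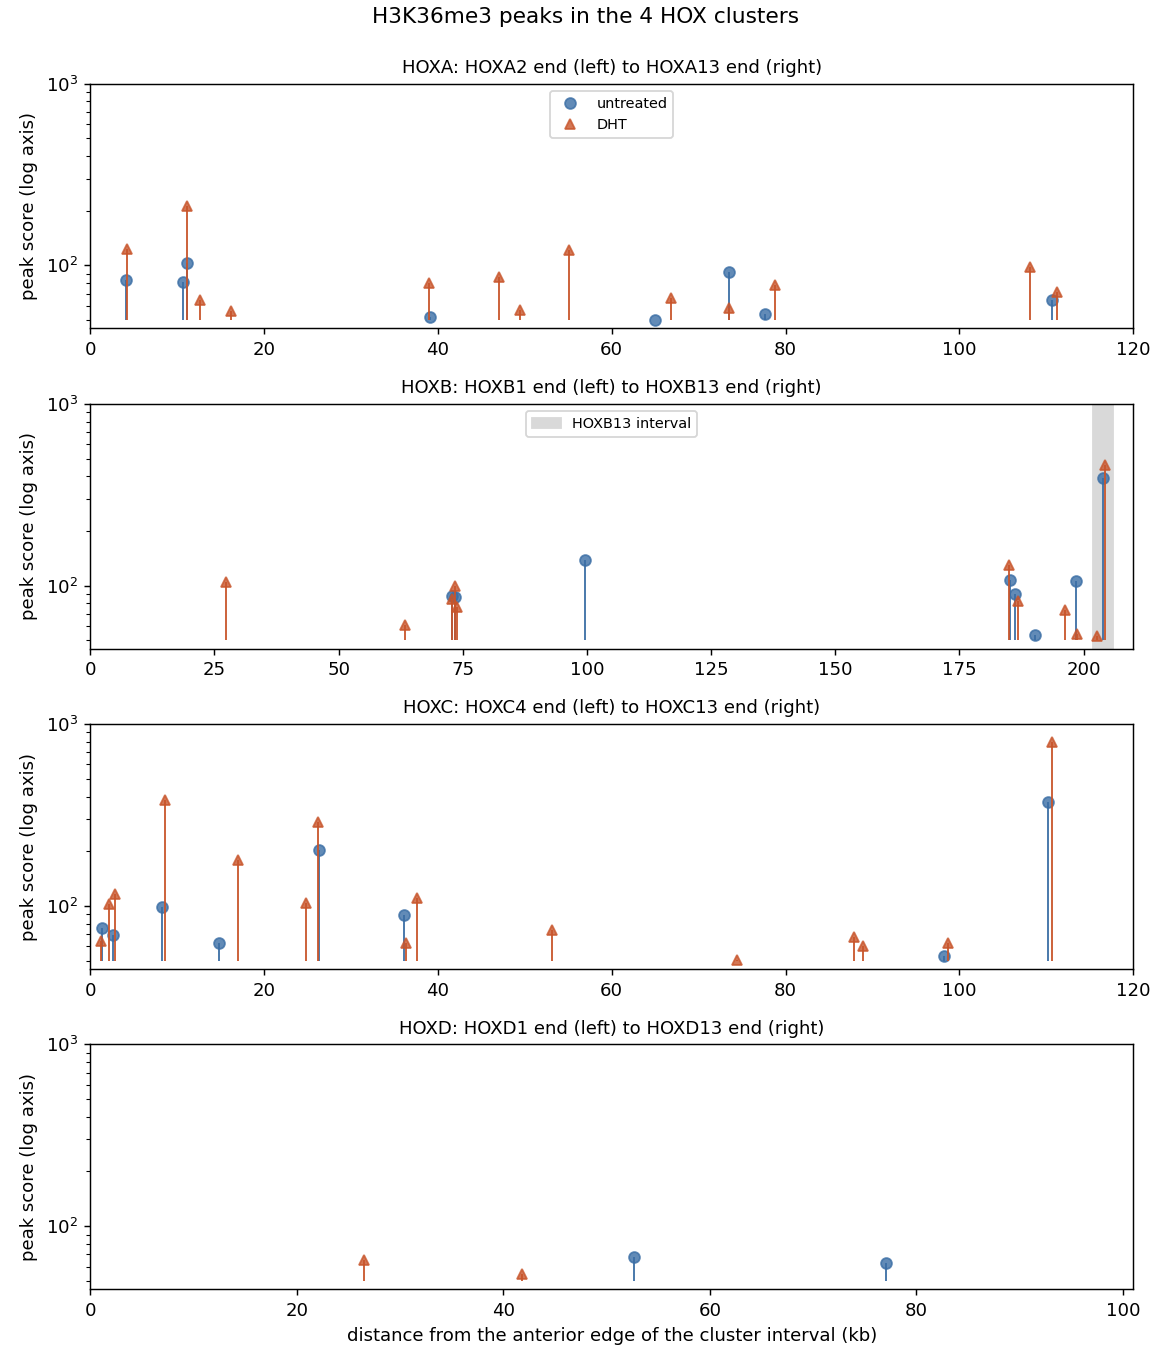
Each panel is 1 cluster, with distance from its anterior edge in kb on the horizontal axis and the authors' peak score on a logarithmic vertical axis. Circles are untreated peaks, triangles are DHT peaks, and lines drop to a score of 50. Scores above 300 appear at the HOXB13 end of HOXB and at both ends of HOXC, and HOXD has 2 peaks per library, none above 67.3.

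In HOXB the mark was gathered at the HOXB13 end. The untreated library had 1 peak in the HOXB13 interval, from 46802189 to 46805682, which was 3494 bp wide with a score of 393. It was the widest untreated peak in any HOX cluster and scored above 98.9% of its list. After DHT the interval had 2 peaks. The first ran from 46802190 to 46803408 with a score of 53.1, in the lowest 6.16% of its list, and the second from 46803703 to 46804746 with a score of 459, above 99.1% of its list. Both libraries thus began within 1 bp of each other at HOXB13, and all of the DHT sequence lay within the untreated peak.

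In the HOXB13 interval, peaks covered 3494 bp untreated and 2263 bp with DHT, with 1231 bp covered in the untreated library alone and 0 bp in the DHT library alone. The DHT library lacked peaks at the high-coordinate end of the untreated peak and between its own 2 peaks. Other wide untreated peaks also met several DHT peaks, though most met 1. Of 646 untreated peaks of 3 to 4 kb genome-wide, 183 (28.3%) met 2 or more DHT peaks, 409 met 1 and 54 met none. The median share of their width covered by DHT peaks was 74.6%, with 25% of them below 51.0%, beside 64.8% at HOXB13. In the other direction, 9.50% of the 600 DHT peaks of that width met 2 or more untreated peaks. Among DHT peaks scoring at least 100 the interval kept only the second peak, 1044 bp.

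The rest of HOXB was less covered than the HOXB13 interval. Without that interval HOXB was 2.05% covered in untreated cells and 1.81% after DHT, beside 2.08% and 2.13% over the genome. Between 46784733 and the HOXB13 interval there were 4 untreated and 4 DHT peaks. RefSeq places PRAC1 and PRAC2, small genes known from prostate and colon, between HOXB9 and HOXB13. The untreated peaks from 46784733 to 46785507 and from 46797956 to 46798888 scored 107 and 105. The DHT peaks inside them scored 129 and 54.1. Before these lay a stretch of 84.8 kb, from 46699929 to 46784732, without a peak of either library. It made up 40.4% of the cluster, the longest such stretch in any of the clusters.

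Central HOXB had a small shared group of peaks. Untreated peaks ran from 46672443 to 46673110 and from 46673227 to 46673611, with scores of 87.2 and 86.4. DHT peaks covered 86.7% and 87.5% of their width, with scores of 85.0 and 99.4, and another DHT peak followed from 46673647 to 46674228. One untreated peak stood alone, from 46699358 to 46699928, with a score of 139 and the nearest DHT peak 25129 bp away. At the anterior end, the first 63.2 kb held 1 DHT peak, 171 bp wide, and no untreated peak.

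HOXC had the mark at both of its ends. At the end of HOXC13, a gene of hair and nail formation, the untreated peak ran from 54338616 to 54340886 with a score of 374, above 98.7% of its list. The DHT peak ran from 54338620 to 54340031 with a score of 793, above 99.9% of its list and the highest of the DHT peaks in the HOX clusters. As at HOXB13, both began at nearly the same base, 4 bp apart, and the DHT peak was narrower, 1412 against 2271 bp. It lay wholly within the untreated one.

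At the other end, toward HOXC4, HOXC5 and HOXC6, genes of cervical and thoracic identity, peaks of both libraries formed a series. The 30 kb nearest the HOXC4 edge were 13.1% covered in untreated cells and 19.4% after DHT, the highest of any such part when each cluster is divided into 4. These parts differ in length. The posterior part of HOXB, 52.5 kb long, held 6092 bp untreated, against 3920 bp in the HOXC part. All 6092 bp lay within 30 kb of the HOXB13 edge, so at equal length that end was more covered untreated. After DHT it held less, 4065 against 5819 bp. Untreated peaks in the 30 kb nearest the HOXC4 edge scored 62.9 to 203 and DHT peaks 64.5 to 382. The highest untreated one, from 54423219 to 54424078, scored 203, and the DHT peak over it, from 54423247 to 54424292, scored 290. The highest DHT one, from 54440724 to 54441973, scored 382, while the untreated peak that it met, from 54441311 to 54442148, scored 98.1.

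When peaks of the libraries were pooled and those within 5 kb joined, they gave a block of 17.5 kb at this end, from 54440724 to 54458261, the longest of the 27 blocks that touched a cluster. It ran past the edge of the interval and was covered over 3765 bp untreated and 3845 bp after DHT. The next longest block was that of HOXB13, 9.78 kb long.

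The middle of HOXC had peaks only after DHT. Untreated cells had none over 61.6 kb, from 54351894 to 54413481. The DHT library had 5 peaks wholly inside that stretch, with scores of 60.4, 67.9, 50.2, 73.7 and 110, and a peak with a score of 62.9 began in it. All of these scores but the 110 were below the median of the DHT list.

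HOXA, whose posterior genes pattern the limb, had scattered small peaks. Its 8 untreated peaks were 269 to 655 bp wide and scored 50.3 to 103, and its 13 DHT peaks were 171 to 934 bp wide and scored 56.5 to 213. None of the untreated ones was in the highest-scoring 25% of its list. In both libraries the highest-scoring peak was at the same place near the anterior end. There the untreated peak ran from 27140988 to 27141346 with a score of 103, above 66.4% of its list, and the DHT peak from 27140973 to 27141367 with a score of 213, above 91.1%.

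Other HOXA places were seen in both libraries. The most anterior peak of each library scored 82.7 untreated, above 51.9% of its list, and 123 after DHT, above 72.5%. The untreated peak from 27168939 to 27169232 stood above 5.40% of its list and the DHT peak over it above 43.8%. The untreated peak from 27203233 to 27203740 stood above 59.5% and its DHT counterpart above 15.4%, the reverse order of ranks. Toward HOXA13, a gene of limb and genital development, the last 30 kb held 1 untreated peak and 2 DHT peaks, which did not overlap. The longest stretch without peaks, 28.9 kb from 27209015 to 27237882, began before these last 30 kb and ended within them. The widest HOXA peak was from DHT only, from 27184657 to 27185590, with a score of 122 and no untreated peak within 9115 bp.

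HOXD had the fewest peaks of the 4 clusters. Its 2 untreated peaks, from 176978801 to 176979015 and from 177003193 to 177003502, scored 62.7 and 67.3. Its 2 DHT peaks, from 177014056 to 177014359 and from 177029243 to 177029700, scored 54.4 and 65.3. All 4 were below the median of their list, none overlapped a peak of the other library, and the nearest pair lay 10553 bp apart. The 26.3 kb nearest the HOXD1 edge had no peak of either library.

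**Figure D2:**
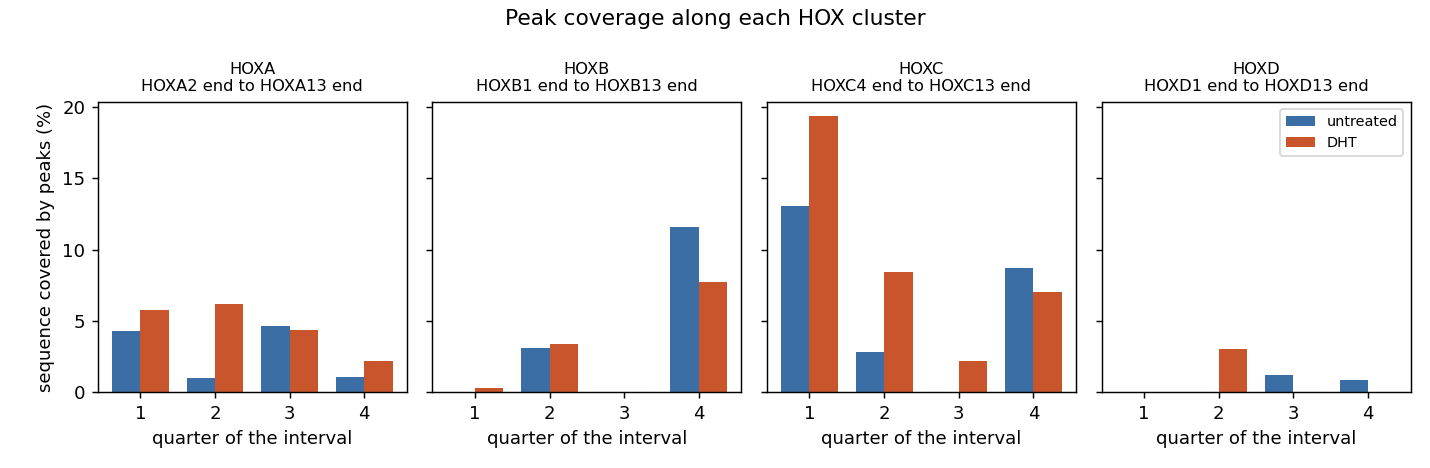
Each cluster interval was divided into 4 equal parts, numbered from the anterior end, and the bars give the percent of each part covered by peaks in untreated (blue) and DHT (orange) cells, 1 library each. HOXC is highest in its anterior part, at 13.1% and 19.4%, and HOXB in its posterior part, at 11.6% and 7.74%.

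Position along the cluster thus differed between HOXB and HOXC. In HOXB, the posterior 52.5 kb with HOXB13 carried 79.0% of the covered length in untreated cells and 67.8% after DHT. In HOXC, the anterior 30 kb carried 53.1% and 52.4%, and the posterior 30 kb with HOXC13 carried 35.5% and 19.0%. In HOXA no part was above 6.19% covered in either library. These parts were drawn after the peaks were seen and have no test.

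**Figure D3:**
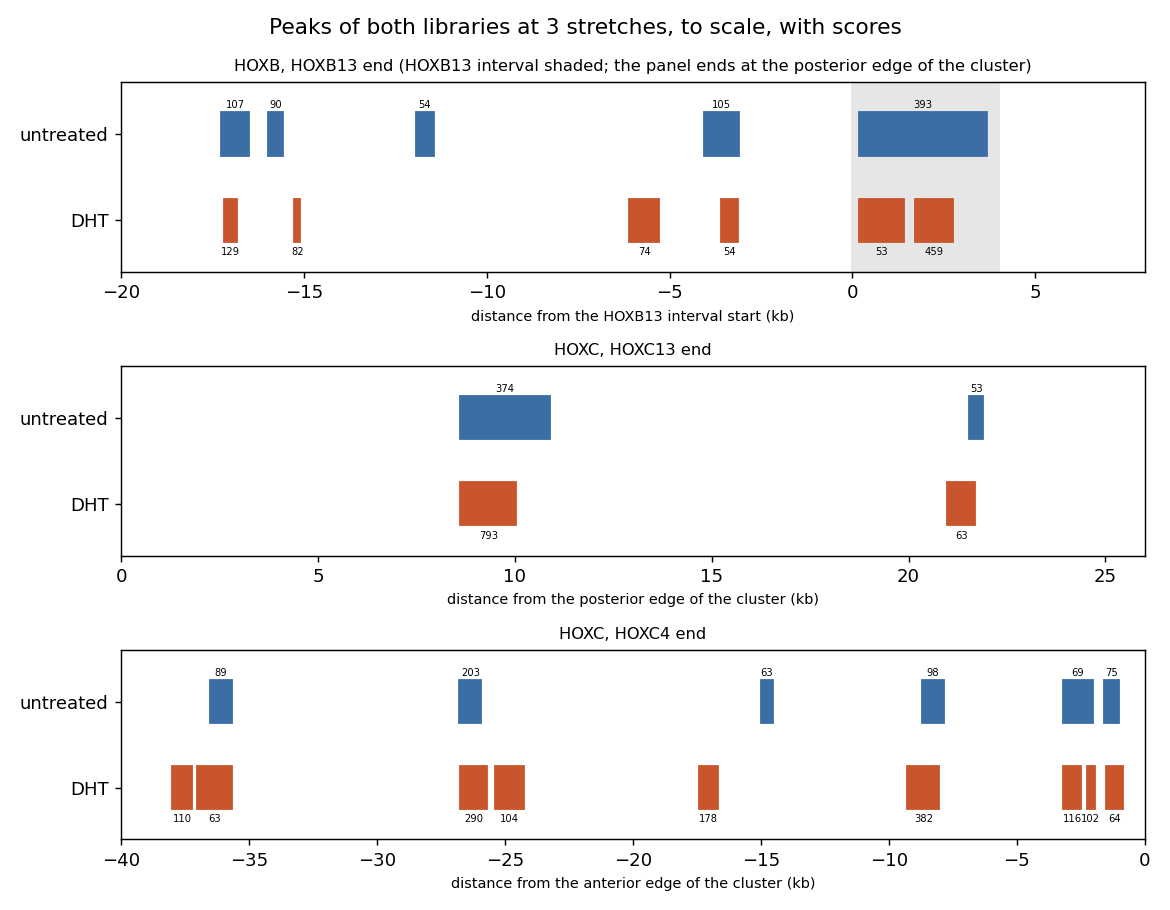
Peaks of the untreated (blue) and DHT (orange) libraries are drawn to scale as boxes at the HOXB13 end of HOXB and at both ends of HOXC, with distance in kb on the horizontal axis and the authors' score printed at each box. The HOXB13 interval is shaded. The untreated box at HOXB13 spans 3494 bp with a score of 393, over DHT boxes of 1219 and 1044 bp with scores of 53.1 and 459.

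The DHT library had more peaks than the untreated one in HOXA, HOXB and HOXC, and the same number in HOXD. Peak numbers went from 8 to 13 in HOXA, 8 to 11 in HOXB, 8 to 15 in HOXC and 2 to 2 in HOXD. The DHT library contributed 61.2% of the 67 cluster peaks (95% Wilson interval 49.2% to 72.0%), against 52.9% of all nuclear peaks, which lies within that interval. Median width was 539.5 bp untreated and 465 bp after DHT in the clusters, against 374 and 354 bp in the lists. By cluster it was lower after DHT in HOXB, at 619.5 and 465 bp, and HOXC, at 838 and 703 bp, and higher in HOXA, at 341.5 and 395 bp, and HOXD, at 262.5 and 381 bp. Peaks of at least 1 kb made up 11.5% and 17.1% of the cluster peaks, 3 and 7 of them, against 10.3% and 7.82% of the lists.

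Covered length was higher after DHT in HOXA, HOXC and HOXD and lower in HOXB, and no cluster's interval excluded 1. It was 3299 and 5547 bp in HOXA, a ratio of 1.68 (95% counting interval 0.654 to 4.32). In HOXB it was 7716 and 5996 bp, a ratio of 0.777 (0.233 to 2.59). In HOXC it was 7381 and 11114 bp, a ratio of 1.51 (0.557 to 4.07), and in HOXD 525 and 762 bp, a ratio of 1.45 (0.197 to 10.7). HOXB fell short by 1231 bp in the HOXB13 interval and by 489 bp in the remainder. Over all 4 clusters the ratio was 1.24 (0.654 to 2.34), against 1.03 over the genome. It turned to 0.893 in the higher-scoring 50% of each list and was 1.16 among peaks scoring at least 100.

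In segments of 5 kb, 110 of which lay in a cluster, 27 held an untreated peak and 33 a DHT peak. These are 24.5% and 30.0%, against a background of 14.9% and 16.2% of all 618536 segments of the genome. A peak of both libraries was in 20 (18.2%, background 10.6%) and a peak of either in 40 (36.4%, background 20.5%). HOXA had 13 of 24 segments with a peak of either library and HOXC 13 of 24, HOXB 10 of 42 and HOXD 4 of 20, so HOXB, at 23.8%, and HOXD, at 20.0%, were near the background. The background includes sequence without genes.

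Segments with a gain in coverage of 10 points or more in the DHT library numbered 7 (6.36%, background 2.18%), 3 in HOXA and 4 in HOXC. Those lower by as much numbered 5 (4.55%, background 2.17%), 4 in HOXB and 1 in HOXC. A segment without a peak in either library cannot differ, and such segments are rarer here than over the genome. The segment with the largest difference upward was in HOXC, from 54410001 to 54415000, at 16.8% untreated and 42.2% after DHT. The largest difference downward was also in HOXC, from 54340001 to 54345000 at the HOXC13 end, at 17.7% and 0.620%, where the DHT peak ended sooner. In HOXB, 2 of the 4 lower segments lay across the HOXB13 interval, at 56.2% against 45.3% and 13.6% against 0.

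Of the 26 untreated peaks in the clusters, 17 were overlapped by a DHT peak (65.4%, Wilson interval 46.2% to 80.6%), against 52.3% of all untreated peaks. Of the 41 DHT peaks, 18 were overlapped (43.9%, 29.9% to 59.0%), against 48.5% of the list. Both genome shares lie within these intervals. By cluster, 7 of 8 untreated peaks were overlapped in HOXC, 5 of 8 in HOXA, 5 of 8 in HOXB and 0 of 2 in HOXD. Sequence covered in both libraries was 33.6% of all sequence covered in the clusters, near the 32.5% of the genome. It was 41.3% in HOXB, 40.0% in HOXC, 18.0% in HOXA and 0 in HOXD.

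By median, cluster peaks found in both libraries scored higher than the other cluster peaks of the same list. The median score of untreated peaks was 88.9 where a DHT peak overlapped and 62.9 elsewhere, and for DHT peaks these were 101 and 73.7. Overlap rose with score over the genome too. Among all peaks 52.3% untreated and 48.5% after DHT were overlapped, and at scores of at least 100, 71.9% and 71.3%. The highest score among peaks of 1 library only was 139 untreated, at the lone HOXB peak, and 178 after DHT, in HOXC from 54432596 to 54433337. All cluster peaks with a score of at least 200, 3 untreated and 5 after DHT, had a counterpart in the other library, as did 88.9% of untreated and 93.1% of DHT peaks with such scores genome-wide. As a share of the cluster peaks they were 11.5% and 12.2%, against 8.07% and 10.2% of the lists.

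Flanks of 200 kb on each side showed that the clusters differ in the sequence around them. Together the clusters were 3.43% covered in untreated cells and their flanks 2.27%, and after DHT 4.25% and 2.51%. The difference of 1.17 points untreated had a 95% counting interval of -0.785 to 3.12, which includes 0. That of 1.74 points after DHT had an interval of 0.0696 to 3.41, which lies above 0. With flanks of 100 kb both intervals lay above 0, from 0.391 to 4.26 untreated and from 0.704 to 4.10 after DHT. With flanks of 500 kb the DHT interval included 0, from -0.280 to 2.93, as it did in the higher-scoring 50% of the list, from -0.661 to 1.90. It also included 0 at scores of at least 100, from -0.620 to 1.88. The same held with peaks joined at 1 kb, from -0.525 to 4.24, and at 5 kb, from -4.76 to 9.12. At the same covered length it lay above 0, from 0.213 to 3.54.

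The flank beyond the anterior end of HOXA, where SKAP2 is the nearest protein-coding neighbour in RefSeq, had no untreated peak and 1 DHT peak of 321 bp. That of HOXB, toward SKAP1, had no peak in either library, so the sparse anterior end of HOXB borders on sequence without peaks. SKAP1 and SKAP2 encode adaptor proteins best known from immune cells. Beyond HOXB13, toward TTLL6 and CALCOCO2, coverage was 6.20% untreated and 8.17% after DHT, more than in HOXB itself.

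HOXC was flanked the other way round. On the HOXC4 side, toward SMUG1, a DNA repair glycosylase, and CBX5, which encodes heterochromatin protein HP1 alpha, coverage was 6.70% and 7.54%. On the HOXC13 side, toward CALCOCO1, it was 0.422% and 0.349%, with 3 peaks in each library. HOXA beyond HOXA13, toward EVX1, was at 2.41% and 1.92%. HOXD was lower than its flanks together in both libraries, at 0.520% against 1.20% and 0.754% against 0.967%, with overlapping intervals. EVX2 neighbours it at the HOXD13 end and MTX2, a mitochondrial import factor, at the other.

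**Figure D4:**
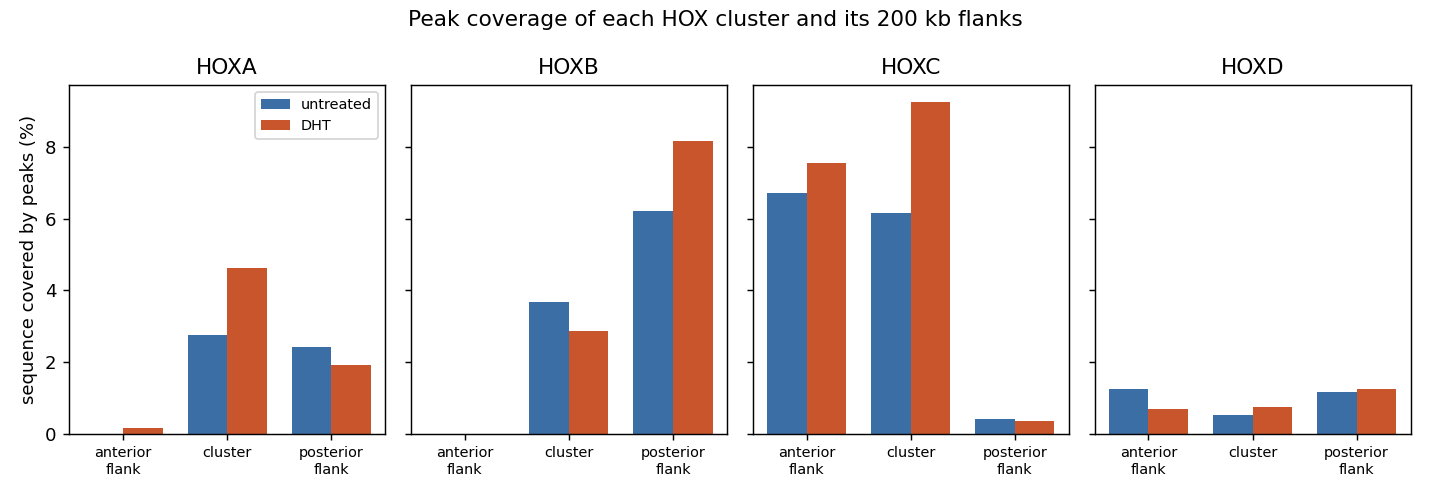
Bars give the percent of sequence covered by peaks in each cluster and in the 200 kb beyond its anterior and posterior ends, for untreated (blue) and DHT (orange) cells, 1 library each. HOXB and HOXC each have 1 flank covered at no more than 0.422% and 1 covered at 6.20% to 8.17%, on the HOXB13 side of HOXB and the HOXC4 side of HOXC.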

How the data were processed

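H3K36me3 peaks came from 1 untreated and 1 DHT library. Each deposited list holds positions and, from the authors, 1 score for every peak. Per the deposited peak names the caller was MACS, and per the file names the build was hg19. Its version, settings and control, the alignment and the depth of reads are not stated, so depth is unknown. MACS can break the broad domains of this mark into several peaks, and a missing peak shows only that a threshold was not passed.

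Peaks on nuclear chromosomes were used. Covered length was clipped to each interval, using NumPy 2.4.6 and pandas 2.3.3 under Python 3.11.15. Covered-length intervals sum squared peak widths as a Poisson variance and shares of peaks carry 95% Wilson intervals (SciPy 1.17.1). Both cover counting error only. Coverage, overlap and joining were tested on simulated peaks. The members and all lists were chosen with earlier results of these data known. All HOX genes of the list were described by cluster and order, and peaks were named for the highest score, greatest width or presence in 1 library. Cofactor, Polycomb and Trithorax genes could not be placed on hg19 and were not analysed. Division of the clusters into 4 parts and leaving out the HOXB13 interval were chosen after seeing the data. Other settings tried were stricter scores, equal covered length, joined peaks, and other overlaps, flanks and segment lengths.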

Additional observations from a re-analysis of the deposited data

How the results depend on the processing

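With 1 library a condition, the spread between libraries is unknown, and the cause of these shifts was not tested. Of the alternative values for the pooled results, 60 stayed within their interval or within 1.5 times, 16 moved and 1 reversed. In the higher-scoring 50% of each list, the ratio of DHT to untreated covered length in all clusters, 1.24, turned to 0.893, while at scores of at least 100 it was 1.16. Coverage after DHT, 4.25%, became 2.14% there and 1.96% at scores of at least 100, and with peaks joined at 5 kb it was 9.50%, with 6.60% for untreated cells. The HOXB13 interval had 1044 bp covered after DHT in both score settings, against 2263 bp. Segments with a peak of either library, 40, became 23 and 19 in those settings. Segments higher after DHT, 7, became 15 with peaks joined at 5 kb, 22 of 275 at 2 kb and 2 of 54 at 10 kb. Those lower, 5, became 8 in the higher-scoring 50%, 15 at 2 kb and 1 at 10 kb. Requiring 50% overlap in both directions gave 46.2% of untreated and 29.3% of DHT peaks overlapped. HOXB stayed lower after DHT under all 5 list settings, with ratios of 0.265 to 0.854. HOXA and HOXC stayed higher, at 1.68 to 5.15 and 1.40 to 2.35. These settings rework the same 2 lists, so they are not independent, and the interval of every one of these ratios included 1. That of the HOXA ratio of 5.15, at scores of at least 100, ran from 0.515 to 51.5. Equal covered length left the HOXA and HOXB ratios unchanged. Without the HOXB13 interval, an alternative added after seeing the data, the ratio over all clusters was 1.37. HOXD had no peaks left in the 2 score settings.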
